A study of Mus musculus with 2 samples.

Results

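The 10 genes described here are used as markers of monocytes and granulocytes, and were examined in bone marrow-derived macrophages, to check how far the cultures had matured and which other blood cells they held. The genes were taken by name from the deposited gene table: S100a8, S100a9, Plac8, F13a1, Ngp, Camp, Ltf, Lcn2, Mpo and Elane. All 10 were found among the 16463 genes of the table. The cultures were unstimulated and came from mice labelled C57BL/6J. WT denotes a line that carries Lyz2-Cre, a Cre recombinase expressed from the lysozyme M locus of myeloid cells. TKO denotes a line labelled mir-106a~363-/- and mir-106b~25-/- with a floxed mir-17~92 cluster, which also carries Lyz2-Cre. Both groups thus share the Cre, and deletion of the floxed cluster depends on Lyz2-Cre activity, while the other clusters are labelled -/-. Marrow cells had been grown for 5 days in DMEM holding 10% serum and 10% L929 cell supernatant, which is a source of macrophage colony-stimulating factor. How many animals each culture came from, and their sex and age, were not stated. Each genotype had 1 library, with 10877897 rounded counts in WT and 10656431 in TKO, so no value below has a replicate check and every interval covers counting error only.

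Monocytes and neutrophils arise from shared marrow progenitors and are set apart by the proteins they store. Neutrophils fill their azurophil granules at the promyelocyte stage, with proteins such as myeloperoxidase and elastase, and make specific granules with lactoferrin and cathelicidin later. Calprotectin, the S100a8 and S100a9 dimer, is abundant in neutrophils and in freshly released monocytes, and its transcripts fade as monocytes turn into macrophages. In a culture driven by macrophage colony-stimulating factor these transcripts can come from immature cells, from remaining granulocytes or from macrophages themselves.

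The marker genes had mean levels below the median of all genes, and the macrophage genes had levels far above it. FPKM, the deposited fragment count scaled for gene length and library depth, compares levels between genes. Mean FPKM over the 2 libraries ran from 0.085 for Camp to 4.08 for F13a1, with a median of 0.46 over the 10 genes. The median over all genes was 5.04, and the mean of each of the 10 marker genes lay below it. In TKO alone, Plac8 at 5.73 and S100a8 at 5.45 were above that value. The highest, F13a1, exceeded 47.1% of genes, and the lowest, Camp, exceeded 13.6%. The 6 granule genes among them had an FPKM under 1 in both libraries, as did 31.4% of all genes.

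The labelled cell type was checked with 16 markers of mature macrophages, all of which passed a minimum of 20 counts in 1 library. Their mean FPKM ran from 32.0 for Mertk, a receptor for dying cells, to 3794 for Apoe, a lipid carrier, with a median of 645. Csf1r, the receptor for macrophage colony-stimulating factor, had an FPKM of 975 in WT and 893 in TKO. Lyz2, the lysozyme M gene, was toward the lower end of the 16, at 33.1 in WT and 35.9 in TKO. The largest ratios among the 16 were those of Fcgr1, an Fc receptor, at a log2 ratio of 0.68, Adgre1, which encodes F4/80, at -0.43, and the mannose receptor Mrc1, at -0.42, and none was called by the rule given below. Summed, the 16 genes made up 26575 CPM, the count scaled to a fixed library total, in WT and 27224 in TKO, against 24.2 and 22.6 for the 10 marker genes. The host transcript of the floxed cluster, Mir17hg, had 8 and 42 counts and was called higher in TKO by that rule, at 5.49-fold (2.55 to 13.5). It passed the minimum only through TKO, so it could be called higher only. These counts do not check the deletion because the table counts the whole host gene, and the source of the difference was not tested.

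**Figure D1:**
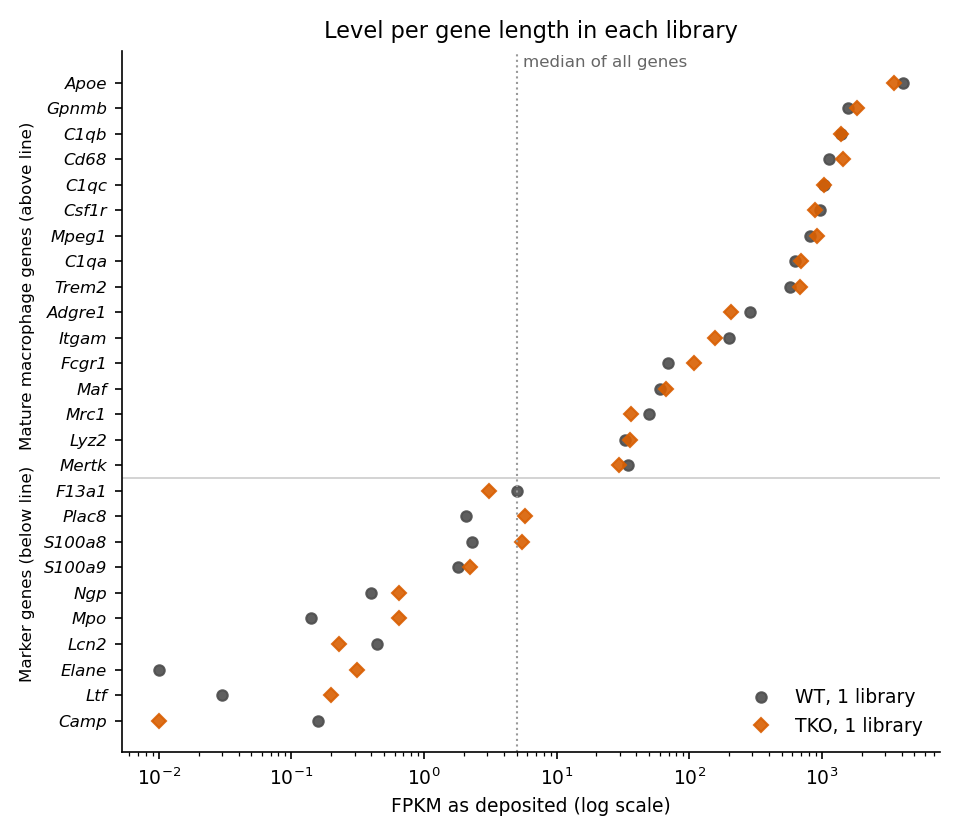
FPKM as deposited (horizontal axis, log scale) of 16 mature macrophage genes, above the grey line, and the 10 marker genes, below it, with circles for the WT library and diamonds for the TKO library. All marker genes have a mean FPKM of at most 4.08 and the macrophage genes one of at least 32.0. Values of 0.01 are listed for genes with 0 counts.

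Differences between the genotypes were described by a rule of size, because 1 library per group allows no test. A gene was called higher or lower in TKO when its scaled counts differed by at least 2-fold, the 95% counting interval excluded no change and 1 library had at least 20 counts. Plac8 and S100a8 were called higher, and 0 of the 10 genes were called lower. Only Plac8, S100a8 and F13a1 reached the count minimum, so the other 7 could not be called. Over all 11525 genes that reached it, 280 were called higher, which is 2.43%, and 265 lower, which is 2.3%. On log2 of FPKM plus 1, with a minimum FPKM of 1 in 1 library in place of the count minimum and with no interval, 213 of 11297 genes were higher and 122 lower. Plac8 passed the count minimum only through TKO, as did S100a8, so they could be called in 1 direction only.

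**Figure D2:**
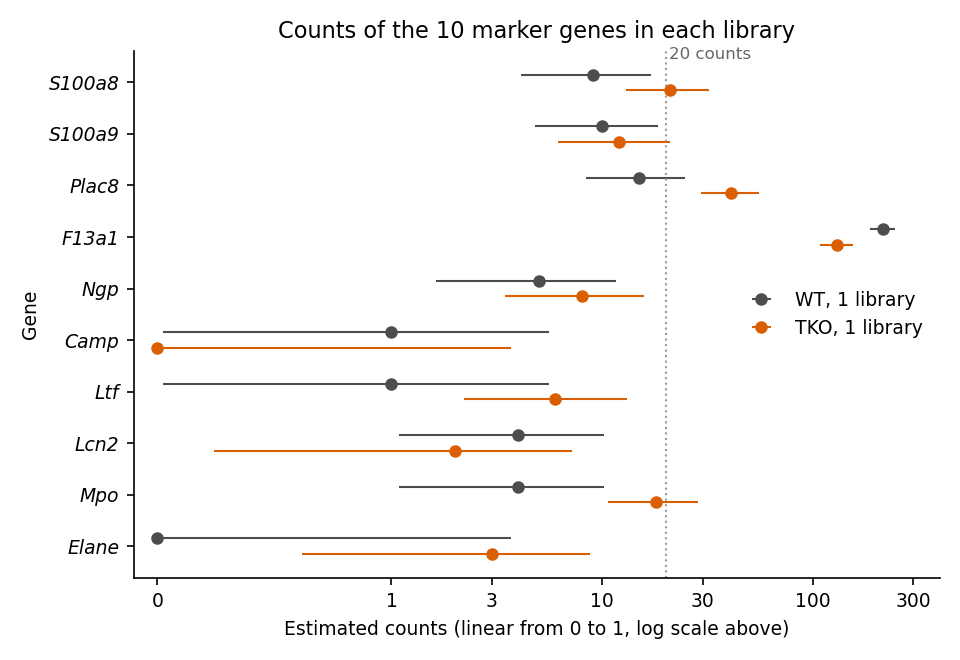
Estimated counts of the 10 marker genes (horizontal axis, linear from 0 to 1 and log above) in the WT and TKO libraries, with exact 95% Poisson intervals as bars. The dotted line marks the minimum of 20 counts, which S100a8 passes with 21 counts in TKO, Plac8 with 41 in TKO and F13a1 in both libraries.

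The 2 monocyte genes went in opposite directions. Plac8 encodes a small cysteine-rich protein of classical monocytes and neutrophils (Entrez 231507, chromosome 5, 100551589 to 100572253, GRCm38). It had 15 counts in WT (exact Poisson 95% interval 8.40 to 24.7) and 41 in TKO (29.4 to 55.6), or FPKM values of 2.06 and 5.73. The TKO library was the higher one and the Poisson intervals did not overlap, and the scaled counts were 2.86-fold higher (1.55 to 5.56). This call held with every scaling tried and after a trend with gene length was taken out, where the log2 ratio was 1.28 in place of 1.52. It was lost with a minimum of 100 counts and with a 4-fold threshold. The nearest measured genes on either side, Cops4 and Coq2, had log2 ratios of -0.026 and 0.70 and were not called.

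F13a1 encodes the A subunit of coagulation factor XIII, a transglutaminase that cross-links fibrin and is made by monocytes, macrophages and megakaryocytes (Entrez 74145, chromosome 13, 36867178 to 37050244). It was the most abundant of the 10. WT held 214 counts (186 to 245), and TKO held 130 (109 to 154). Here WT was the higher library, and the intervals did not overlap. The log2 ratio was -0.65 (-0.98 to -0.33), or 1.57-fold lower in TKO, which is outside the 2-fold rule and inside a 1.5-fold rule. FPKM values were 5.04 and 3.12. Relative to F13a1, Plac8 was 4.48-fold higher in TKO (exact conditional 95% interval 2.32 to 9.08), a value that does not depend on how the libraries are scaled. Because F13a1 held most of the counts, the sum over all 10 genes was 263 in WT and 241 in TKO, a log2 ratio of -0.060 (-0.32 to 0.20). Without the 2 monocyte genes the remaining 8 summed to 34 and 70 counts, 2.15-fold higher in TKO, with a log2 ratio of 1.11 (0.50 to 1.74). S100a8, at 9 and 21 counts, and Mpo, at 4 and 18, supplied most of that difference. The interval treats the pooled counts as 1 count and does not cover the spread between genes.

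The calprotectin genes were detected at a few counts each. S100a8 (Entrez 20201, chromosome 3, 90669071 to 90670034) had 9 counts in WT (4.12 to 17.1) and 21 in TKO (13 to 32.1), and its Poisson intervals overlapped. The scaled difference was 2.44-fold (1.07 to 6.06), so the lower bound was close to no change. S100a8 was no longer called with a 99% interval, with log2 of FPKM plus 1, where the log2 ratio was 0.97, or with the length trend removed, where it was 0.98. S100a9 (Entrez 20202, chromosome 3, 90692630 to 90695721) gave 10 counts in WT and 12 in TKO; the log2 ratio was 0.33 (-1.01 to 1.70). The pair lies 22596 bases apart, and the encoded proteins act together. Their ratios could not be distinguished at this depth, since S100a8 relative to S100a9 differed 1.92-fold with an interval of 0.53 to 7.12. Summed, the pair had 1.75 CPM in WT (exact binomial 95% interval 1.05 to 2.73) and 3.10 in TKO (2.13 to 4.35).

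Other S100 genes of the same chromosome showed how low this pair was. In FPKM, S100a4, which is widely expressed in motile cells and macrophages, stood at 1721 in WT and 2095 in TKO, and S100a8 at 2.29 and 5.45. Of the 12 measured S100 genes on the list, 7 passed the count minimum, S100a8 only through TKO, so it could be called higher only. It was the 1 called higher and none was lower, beside 2.43% and 2.3% of all genes. All 7 had log2 ratios above 0, from 0.13 to 1.29, the last that of S100a8. Their median was 0.34, or 0.093 with the length trend removed, where over all genes it was 0.0043 and 0.00077. S100a1, S100a13 and S100a10 followed S100a8 in size of ratio among the 7, at 0.52, 0.38 and 0.34. S100a11 turned to -0.15 without the length trend.

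The azurophil granule genes had more counts in TKO, on very small numbers. Mpo encodes myeloperoxidase, which makes hypochlorous acid (Entrez 17523, chromosome 11, 87793784 to 87804412). It had 4 counts in WT (1.09 to 10.2) and 18 in TKO (10.7 to 28.4). The scaled difference was 4.71-fold (1.55 to 19.1), and TKO was the higher library with intervals that did not overlap. Mpo stayed below the minimum of 20 counts and was not called. Without that minimum it was called higher, as were 2.47% of the 13708 genes with counts in both libraries and more than 3 in at least 1 of them. On log2 of FPKM plus 1, which shrinks low values, its ratio was 0.53.

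Elane encodes neutrophil elastase (Entrez 50701, chromosome 10, 79886312 to 79888216). WT held 0 counts, which allows up to 3, and TKO held 3, so no ratio was given. Its neighbour Prtn3, which encodes the related protease 3 of the same granules and lies 3138 bases away, had 1 and 3 counts. Mpo and Elane together had 4 and 21 counts, or 0.368 CPM in WT (0.10 to 0.942) and 1.97 in TKO (1.22 to 3.01). The wider azurophil list of 6 genes summed to 44 and 49 counts. The log2 ratio of the sum was 0.22 (-0.40 to 0.84), and 5 of the 6 genes had more counts in TKO. Prss57, a serine protease of these granules, was the exception and supplied 37 of the WT counts and 15 in TKO. It was the 1 listed gene past the count minimum and was called lower, at 2.36-fold (1.26 to 4.62). Prss57 passed that minimum only through WT, so it could be called lower only. Ctsg, which encodes cathepsin G and was chosen for mention after its values were seen, had 2 and 9 counts, a ratio of 4.71 with an interval of 0.975 to 44.8.

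The specific granule genes were close to the detection limit in both libraries. Ngp, a cathelicidin-related granule protein (Entrez 18054, chromosome 9, 110419808 to 110423012), had 5 counts in WT and 8 in TKO. Ltf, the iron-binding protein lactoferrin (Entrez 17002, chromosome 9, 111019292 to 111042766), had 1 and 6, a ratio of 6.28 with an interval of 0.76 to 289. Lcn2, which binds bacterial siderophores (Entrez 16819, chromosome 2, 32384637 to 32387739), had 4 and 2. Camp, the cathelicidin precursor (Entrez 12796, chromosome 9, 109847377 to 109849456), had 1 count in WT, while the 0 of TKO allows up to 3, and was given no ratio. None of the 3 ratios had an interval that excluded no change. The 4 genes summed to 11 and 16 counts, a log2 ratio of 0.61 (-0.59 to 1.86), so a difference was not detectable at this depth. Camp, Ngp and Ltf lie within 1195389 bases of one another on chromosome 9.

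**Figure D3:**
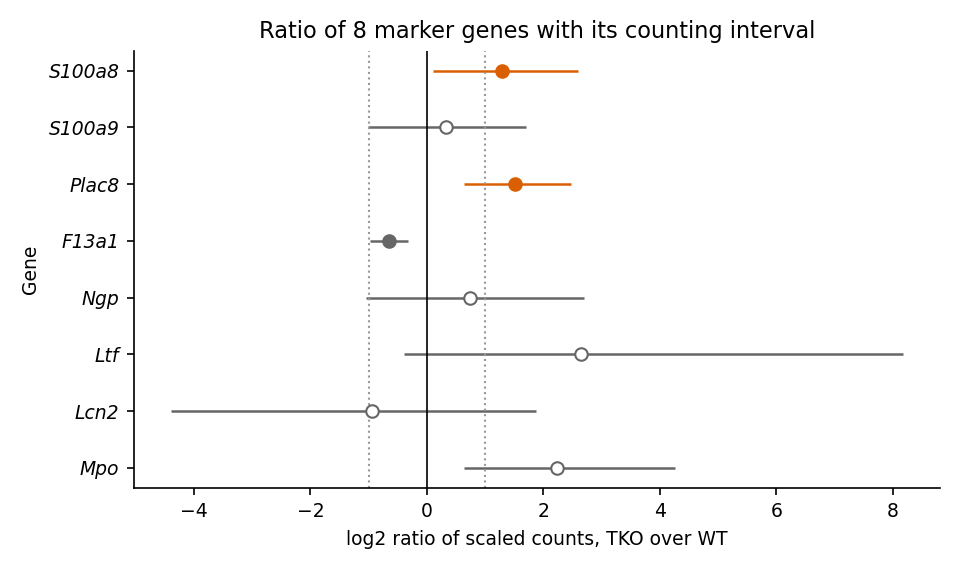
log2 ratio of scaled counts, TKO over WT (horizontal axis), of the 8 marker genes with more than 3 counts in a library, with 95% counting intervals as bars. Filled points reached 20 counts in 1 library, orange points were called higher, and dotted lines mark a 2-fold difference. The intervals of S100a8, Plac8 and Mpo lie above 0 and that of F13a1 below 0, while those of S100a9, Ngp, Ltf and Lcn2 include 0.

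The wider list of specific granule genes was dominated by a gene at a higher level. Mmp8, which encodes neutrophil collagenase, was counted 415 times in WT and 313 times in TKO; its log2 ratio was -0.34 (-0.56 to -0.13), and it was not called. It was the 1 of 9 listed genes past the count minimum. The 9 genes summed to 439 and 350 counts, of which Mmp8 made up most. Hp, the haemoglobin-binding protein haptoglobin, and Cd177, a neutrophil surface protein, were named after their values were seen and had 8 and 13 and 4 and 6 counts.

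Of the 7 marker genes below the count minimum, 5 had more scaled counts in TKO, or 71.4%. Among all 4909 genes with a larger count of 1 to 19 the share was 54.9%. The 6 granule genes together held 15 counts in WT and 37 in TKO, or 1.38 CPM (0.772 to 2.27) and 3.47 CPM (2.44 to 4.79). The log2 ratio of this sum was 1.37 (0.47 to 2.34), and Mpo supplied 18 of the 37 TKO counts. In bulk RNA, more cells of a type and more RNA per cell cannot be told apart.

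The promoters were searched for motifs of factors that act in this lineage. C/EBP-epsilon is known to drive specific granule genes and PU.1 acts throughout the myeloid lineage. All 10 genes matched in the RefSeq promoter set for GRCm38.p6, with 12 start sites. In the 250 bases before the start, the C/EBP core TTGCNNAA, read on both strands, was found for 5 of the 10 genes, namely S100a9, Plac8, Ngp, Ltf and Lcn2. It was present in 5 of their 12 windows and in 9.56% of all 32851 windows of this length. The PU.1 core GAGGAA was found for 7 of the 10 genes, in 7 of their 12 windows and in 23.3% of all windows. The TATA box TATAAA was found only for S100a8 among these genes, in 1 of their 12 windows and in 12.4% of all windows. No TTGCNNAA match of these genes overlapped a GAGGAA match. The 30-base stretches around the C/EBP matches, and around the S100a8 TATA box for comparison with its partner gene, are shown 5′ to 3′ on the gene's strand with the match in capitals.
S100a8, TATA box, chr3:90669029-90669058, plus strand: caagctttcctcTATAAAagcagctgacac
S100a9, C/EBP, chr3:90695939-90695968, minus strand: ggtaggctgtcTTGCTTAAgatttgggcgg
Plac8, C/EBP at its downstream start, chr5:100563097-100563126, minus strand: agaggttgttttccacggTTCTGCAAccct
Ngp, C/EBP, chr9:110419659-110419688, plus strand: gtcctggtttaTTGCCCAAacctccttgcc
Ngp, second C/EBP, chr9:110419778-110419807, plus strand: tttatgtcaccggcagttcTTGGGCAAggc
Ltf, C/EBP, chr9:111019206-111019235, plus strand: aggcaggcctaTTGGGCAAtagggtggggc
Lcn2, C/EBP, chr2:32387937-32387966, minus strand: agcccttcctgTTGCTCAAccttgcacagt
These matches are letters in a window, and no binding was measured.

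No transcription factor on the lineage list was called. Of 10 listed factors, 8 passed the count minimum and none was called, with a median log2 ratio of 0.088, which was -0.015 on log2 of FPKM plus 1. Cebpa, the general myeloid C/EBP factor, was counted 4101 times in WT and 3382 times in TKO. Spi1, which encodes PU.1, was the most abundant in FPKM, at 204 and 238. Egr1, an early response factor, Spi1 and Cebpa had the largest ratios, at -0.30, 0.26 and -0.21. The granulocyte factors were low, and were named after their values were seen. Cebpe, which encodes C/EBP-epsilon, had 16 and 9 counts, and Gfi1, a repressor needed for neutrophil development, had 1 and 1.

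Other neutrophil genes gave no common direction. Of 11 measured genes on the mature neutrophil list, 5 passed the count minimum, with a median log2 ratio of -0.078. Csf3r, the receptor for granulocyte colony-stimulating factor, was the most abundant, with FPKM values of 21.6 and 23.8, and had a log2 ratio of 0.16. Mmp9, gelatinase B, was the 1 gene called. Its 52 WT counts stood against 19 for TKO, 2.62-fold lower (1.52 to 4.68). Mmp9 passed the minimum only through WT, so it could be called lower only. Trem1, an activating receptor, and Padi4, which citrullinates histones, had log2 ratios of 0.24 and -0.20. The list summed to 121 CPM in WT and 125 in TKO, with a log2 ratio of 0.083 (-0.028 to 0.19). Csf3r supplied 919 of the 1321 WT counts and 982 of the 1337 TKO counts, so the sum mostly follows that gene. The genes below the minimum were named after their values were seen: Il1r2 3 and 14, Ltb4r1 4 and 11, Fpr1 2 and 3, Fpr2 0 and 3, Retnlg 2 and 0, and Mrgpra2b 1 and 1. Il1r2 had a log2 ratio of 2.29 (0.45 to 4.73).

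The classical monocyte list, which includes Plac8 and F13a1, held 2 genes called higher in TKO. Of 12 measured genes, 10 passed the count minimum, 2 were called higher and none lower, beside the background of 2.43% and 2.3%. Ms4a4c, a membrane protein of the Ms4a family, had 104 and 665 counts, 6.69-fold higher (5.43 to 8.31). Plac8 was the other, and it passed the minimum only through TKO. Cd14, the co-receptor for lipopolysaccharide and the most abundant of the list, had a log2 ratio of -0.16. Ccr2, the chemokine receptor that marks classical monocytes, stood at 1589 and 1548 counts, with 0.028. Ly6c2, the defining surface marker of these cells, was below the minimum with 6 and 17 counts, a ratio of 2.97 (1.12 to 9.18). Its close paralog Ly6c1 had 1 and 10, and the division of reads between them is uncertain. Ccr2 and the Ly6c genes were named after their values were seen. The list median was -0.056, or 0.087 with the length trend removed, and 4 of the 10 ratios were above 0. Thbs1, which encodes thrombospondin 1, had a log2 ratio of -0.66, near that of F13a1. The list summed to 1190 CPM in WT and 966 in TKO, a log2 ratio of -0.26 (-0.30 to -0.23). Of these counts Thbs1 supplied 6341 of 12946 in WT and 3848 of 10299 in TKO.

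Nonclassical monocyte genes were not called in either direction. Of 8 measured genes 6 passed the minimum, with a median log2 ratio of -0.20. Cx3cr1, the fractalkine receptor and the most abundant, was counted 2923 times in WT and 2080 times in TKO, at -0.43 (-0.51 to -0.34). Nr4a1, a nuclear receptor needed by these monocytes, had -0.57, Cd300e 0.53 and Spn, which encodes CD43, 0.51.

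Markers of other cells were compared beside the marker genes, since makeup of the culture can move with them. Progenitor markers summed to 20.5 CPM in WT and 21.9 in TKO over 7 genes. Flt3, a cytokine receptor of progenitors and dendritic cells, was 2.83-fold higher and Sox4, a transcription factor, 2.19-fold lower, while Meis1 had a log2 ratio of 0.59 and Cd34, a progenitor surface protein, 0.51. Dendritic cell markers summed to 35.9 and 86.9 CPM over 8 genes, a log2 ratio of 1.31 (1.14 to 1.48). Itgax, an integrin chain that macrophages also express, supplied 342 of the 391 WT counts and 843 of the 926 TKO counts, and the other 7 genes summed to 49 and 83. Of their 3 genes past the minimum 2 were called higher, Itgax and Dpp4, beside 2.43% of all genes, and Xcr1 had 0.51. Dpp4 had 8 and 22 counts, with an interval of 1.23 to 7.48 for its fold. It passed the minimum only through TKO, as did Flt3 with 10 and 27, so both could be called higher only. The 5 genes below the minimum had few counts in WT and TKO: Ccr7 5 and 14, Clec9a 1 and 4, Siglech 4 and 6, Zbtb46 5 and 3, and Cd209a 1 and 0. Fibroblast markers summed to 493 and 138 CPM over 9 genes, a log2 ratio of -1.80. Of the 7 past the minimum 5 were lower, led by Col1a1, Col3a1 and Postn, beside 2.3% of all genes. Pdgfra, at 35 and 13 counts, was among the 5 and passed the minimum only through WT. Plac8 and S100a8, both called higher, and Mpo, below the count minimum, had more scaled counts in TKO, as did the dendritic cell sum. F13a1, the most abundant of the 10, had 214 and 130 counts, and the fibroblast sum was also lower. The other marker genes, all below the count minimum, went both ways. The part of either sum in these values was not tested.

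**Figure D4:**
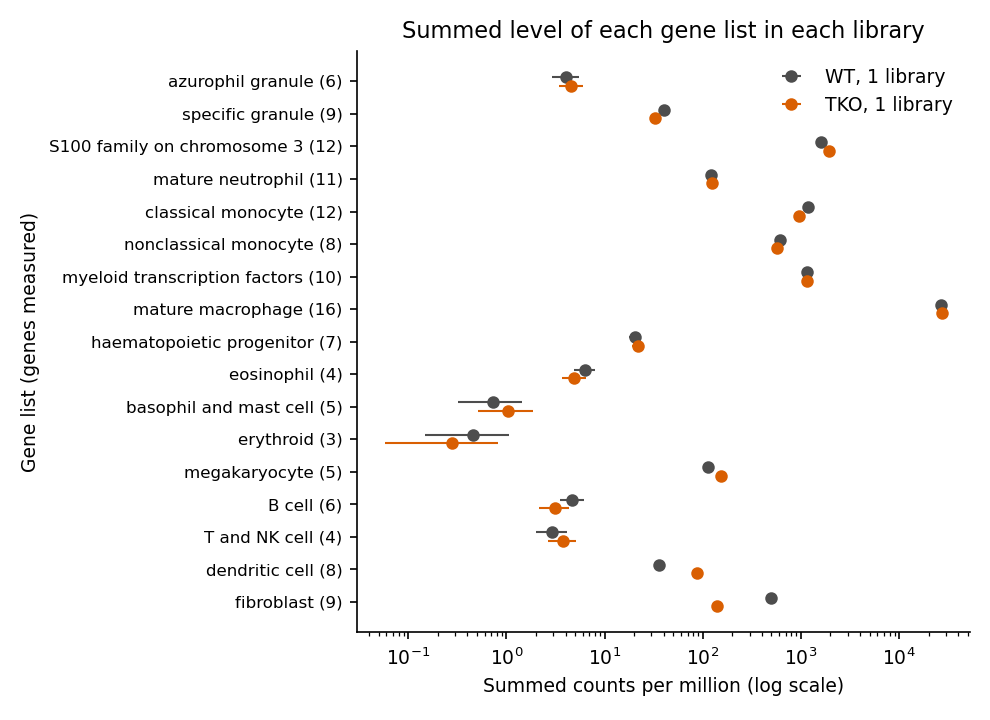
Summed CPM (horizontal axis, log scale) of 17 gene lists in the WT and TKO libraries, with exact 95% binomial intervals as bars and the number of measured genes in brackets. The macrophage sums are 26575 and 27224, the 2 granule lists reach at most 40.4, and the dendritic cell and fibroblast sums differ most among lists with over 10 CPM.

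Markers of cells that share the granulocyte and monocyte precursors, or that could be carried over from marrow, were also summed. The eosinophil list, with 4 measured genes, summed to 6.25 and 4.88 CPM. Of its genes Siglecf, a sialic acid receptor, was 2.45-fold lower, at 41 and 16 counts. Il5ra, the interleukin 5 receptor, had a log2 ratio of 0.93. The granule gene Prg2 had 1 and 0 counts. Basophil and mast cell genes summed to 8 and 11 counts over 5 genes, and erythroid genes to 5 and 3 counts over 3 genes, with none past the minimum. B cell genes summed to 51 and 33 counts over 6 genes, with Cd79b at -0.37. Ebf1, a B cell factor, was 2.51-fold lower, at 21 and 8 counts. Siglecf and Ebf1 passed the minimum only through WT, so they could be called lower only. T and NK cell genes summed to 32 and 40 counts over 4 genes, with none past the minimum. The megakaryocyte list, whose cells also make F13a1, summed to 114 and 153 CPM over 5 genes. Vwf, which endothelial cells also make, had a log2 ratio of 0.58 and supplied 974 of 1245 WT counts and 1395 of 1628 TKO counts. The other 4 genes summed to 271 and 233 counts. Among them Pf4, a platelet chemokine, had a log2 ratio of -0.20, Ppbp had 11 and 18 counts, and the platelet receptor genes Itga2b and Gp1ba had 8 and 5 and 12 and 10.

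In the authors' deposited table the log2 ratios of FPKM were 1.48 for Plac8, 1.25 for S100a8, 0.29 for S100a9 and -0.69 for F13a1. In the authors' deposited table, Mpo stood at 2.22 and Ltf at 2.74. The deposited values of 4.95 for Elane and -4 for Camp come from a listed FPKM of 0.01 for a library with 0 counts, so they are no measured ratios.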

How the data were processed

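Polyadenylated RNA of 1 WT and 1 TKO culture was sequenced, and the deposited data were 1 table for both libraries. Per the submitters' processing notes, the tools were RSEM 1.2.12, HISAT2 2.0.4 and Bowtie2 2.2.5 and the build mm10, with no roles stated; annotation, filters, strandedness and the test behind the deposited comparison are not given. The deposited expected counts were 21.3% (WT) and 21.1% (TKO) not whole; those of the 10 genes were all whole. The deposited FPKM values are scaled for length and depth by the authors. The deposited log2 ratio equals the log2 of TKO over WT FPKM. The authors' p-value and FDR were not used; the deposited FDR was treated as a score, because 713 values exceed 1. Table columns name the genotype and were assigned by it, and 0 columns went unmatched.

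Rounded counts were divided by library totals multiplied by edgeR 4.0.16 TMM factors (1.01 for WT, 0.988 for TKO). Ratios carry an exact conditional binomial (Clopper-Pearson) 95% interval. A count of 0 was set to a floor of 3 per library, and no ratio was given where both libraries had 3 counts or fewer. Without molecular identifiers, reads may be copies of one molecule, so intervals cover counting error only. The rule of size was tested before use on simulated counts, which held counting error only and no spread between cultures. Changes were set only in genes with a mean of at least 20 counts, so genes with few counts were not covered. Sums are given as CPM of the rounded library totals, without TMM factors. The 10 genes and the 17 lists were chosen with earlier results of these data known. Named were the 10 genes, Mir17hg and Lyz2, the most abundant gene of each list by FPKM and up to 3 with the largest ratio past the minimum, neighbours where a result turned on them, and genes stated to be named after their values were seen. Csf1r, S100a11, Prg2, Ppbp, Itga2b, Gp1ba, Pdgfra and the dendritic cell genes below the minimum were also named after their values were seen. Coordinates are RefSeq GRCm38.p6, the assembly behind mm10, matched by Entrez identifier. Some genes of the lists are not reported here and were left out of the list counts, medians and sums. Listed genes with no row here, such as Ly6g, were not analysed here. Alternatives were library totals, DESeq2 1.42.0 size factors, log2(FPKM + 1) with a minimum FPKM of 1 in 1 library and no interval, a minimum of 100 counts or no minimum, a 1.5-fold or 4-fold threshold, a 99% interval and removal of the lowess trend (span 0.3) with gene length.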

Additional observations from a re-analysis of the deposited data

How the results depend on the processing

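Plac8 was called higher in TKO under 7 of the 9 alternatives. The number of marker genes called higher was 2 with library totals, DESeq2 size factors or a 1.5-fold threshold, and 3 with no count minimum, which added Mpo. It was 1, Plac8, with log2 of FPKM plus 1, with a 99% interval and with the length trend removed. It was 0 with a minimum of 100 counts, which only F13a1 reached, and 0 with a 4-fold threshold. The number called lower was 1, F13a1, with a 1.5-fold threshold and 0 under every other alternative. Over all genes, 164 were higher and 95 lower with at least 100 counts. With log2 of FPKM plus 1, its own filter and no interval, 213 of 11297 were higher and 122 lower. Of 11525 genes, 591 were higher and 636 lower with a 1.5-fold threshold, and 76 and 26 with a 4-fold threshold. Of the same 11525, these counts were 262 and 292 with library totals and 271 and 276 with DESeq2 size factors. They were 257 and 222 with a 99% interval and 270 and 240 with the length trend removed. With no count minimum, 338 of 13708 genes were higher and 321 lower. Of 41 values of single marker genes under alternatives, 40 lay within their counting interval, the exception being Mpo with log2 of FPKM plus 1, and none of the called ones changed sign. A changed count minimum leaves a ratio as it was, and library totals or DESeq2 size factors shift all genes alike by little. Values under those alternatives could not leave intervals this wide, so they are no check of the ratios. Of 80 medians of lists, 11 changed sign or moved by at least 0.5, among them the azurophil list, at 2.24 with no count minimum. No paired analysis was possible because each genotype had 1 library, and no library could be left out. Depth limits most single genes, since 7 of the 10 genes had fewer than 20 counts in both libraries.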
